A study of Mus musculus with 9 samples.

Results

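The HoxD cluster and its neighbor Evx2 were examined for sites of HOXA13 and HOXD13 in CUT&RUN peak lists of mouse distal forelimb cells. CUT&RUN releases the DNA next to an antibody-bound protein with a tethered nuclease. Each list gives intervals of enrichment and, inside them, summits, the positions of highest pileup. The 10 members, in centromeric to telomeric order, were Evx2, Hoxd13, Hoxd12, Hoxd11, Hoxd10, Hoxd9, Hoxd8, Hoxd4, Hoxd3 and Hoxd1, out of 21853 protein-coding genes. They were taken by name, and every summit in a fixed 130 kb window of chromosome 2 (mm10) was assigned to a promoter first, then to a gene body, then to the spacer between neighbors or to a flank. A promoter was 1000 bp to each side of the 5′ end of a gene's representative GENCODE transcript. The window began 15.6 kb beyond the 3′ end of Evx2 and ended 4.86 kb beyond the 3′ end of Hoxd1. Assignment to a gene rests on position alone.

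There were 9 libraries, 1 list each, all from embryos with a B6CBAF1 background. Wild-type (wt) embryos at E12.5 gave 3 HOXA13 and 3 HOXD13 libraries. The 542 line is homozygous for a single copy of II1:HBB:LacZ (the II1 digit enhancer, the human beta-globin promoter and a LacZ reporter) inserted in T-DOM and derives from 1 founder. It keeps its native II1 in C-DOM, and its lists were called after mapping to the mutant genome, in which the cluster has the same coordinates as in mm10. From this line came 2 libraries of HOXA13, at E12.5, and a single library of HOXD13, whose title gives E11.5. Each library came from a pool of cells of several embryos, so a value is an average over them. The 542 HOXD13 library had no replicate and no wt library of its stage, and its values are given without comparison. The title of that library and the study's general description of collection differ in stage. Wt HOXD13 replicate 3 is described as a reanalysis of an older library, and replicate 3 of both antibodies and the 542 HOXD13 library were sequenced at another read length than the rest.

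As background, Hox genes are transcription factors arranged in clusters, in which the position of a gene relates to where and when it is active along the body and limb axes. In the limb, the posterior genes Hoxd13 to Hoxd11 are expressed in digits under enhancers of C-DOM, the regulatory landscape on the centromeric side. More anterior genes such as Hoxd9, Hoxd8, Hoxd4 and Hoxd3 are active in the proximal limb under T-DOM, on the telomeric side. HOXA13 and HOXD13 are required for digit development and bind AT-rich DNA, so that their sites in the cluster include sites in genes of their own family.

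The lists held 31195 summits (wt HOXD13 replicate 1) to 187946 summits (542 HOXD13). Depth recovered from the enrichment values ran from 36.9 to 65.5 M (mega) read ends, each mate counted as an end of its own. In the window, wt HOXA13 replicates 1, 2 and 3 had 40, 23 and 21 summits. Wt HOXD13 replicates 1, 2 and 3 had 13, 42 and 24 summits. The 542 lists had 51 and 42 summits for HOXA13 and 68 for HOXD13. The number of summits therefore moved with the size of the list, and wt HOXD13 replicate 1, the smallest list, decided several counts given here.

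**Figure D1:**
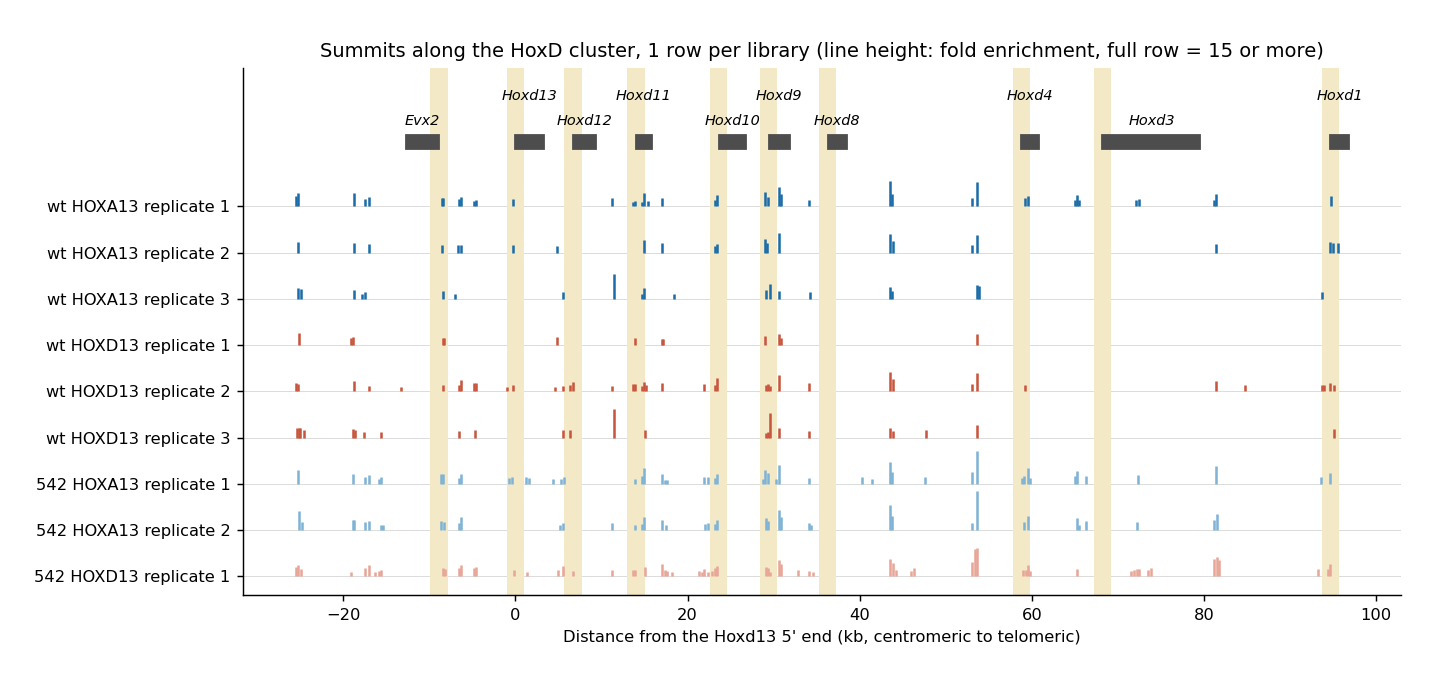
Summits of the 9 libraries along the cluster, with distance from the Hoxd13 5′ end in kb on the x axis, 1 row per library, line height proportional to fold enrichment over local background, grey bars for representative transcripts and shaded bands for promoters. The same positions recur from library to library near Hoxd9, in the spacer upstream of Hoxd4 and beyond Evx2, and no line stands at Hoxd8 in any of the 9 rows.

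Summits were joined into sites where neighbors lay at most 75 bp apart. This gave 113 sites, of which 32 lay in promoters, 15 in gene bodies, 49 in spacers and 17 in flanks. Only 4 sites had a summit in all 9 lists and 53 had a summit in a single list. The 4 sites shared by all 9 lists were at the upstream 5′ end of Hoxd4, in the Hoxd9 intron, in the Hoxd9 promoter, and in the flank beyond Evx2. Another site in that flank was shared by all 6 wt lists, and without wt HOXD13 replicate 1 the number of sites in every remaining wt list rose from 5 to 8.

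The stretches below show the DNA under 5 of the 8 sites called in most lists, 2 from promoters, 1 from a gene body and 2 from spacers. They are centered on the median summit and read on the + strand of GRCm38 (mm10). Capitals mark matches to the HOX13 consensus on either strand, searched as CCNATAAA, CCNGTAAA, CTNATAAA and CTNGTAAA. Of all windows of this length in the cluster, 4.85% hold a match.
Hoxd9 promoter, chr2:74697321-74697421, strand +: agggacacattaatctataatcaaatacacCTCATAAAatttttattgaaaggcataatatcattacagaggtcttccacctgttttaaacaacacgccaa
Hoxd9 intron, chr2:74698900-74699000, strand +: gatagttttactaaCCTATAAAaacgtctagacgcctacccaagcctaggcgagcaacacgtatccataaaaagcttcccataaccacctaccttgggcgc
Upstream 5′ end of Hoxd4, chr2:74721919-74722019, strand +: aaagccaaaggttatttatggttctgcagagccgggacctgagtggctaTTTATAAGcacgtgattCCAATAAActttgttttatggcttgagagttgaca
Hoxd11 intron, within the promoter window, chr2:74683251-74683351, strand +: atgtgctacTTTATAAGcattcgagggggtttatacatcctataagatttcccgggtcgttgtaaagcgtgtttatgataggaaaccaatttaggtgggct
Upstream 5′ end of Hoxd3, chr2:74711786-74711886, strand +: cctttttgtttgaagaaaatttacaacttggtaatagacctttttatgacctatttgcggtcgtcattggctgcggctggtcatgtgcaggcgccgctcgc
The Hoxd4 stretch carries 2 matches, the Hoxd9 and Hoxd11 stretches 1 each, and the Hoxd3 stretch none. The sites among the 8 that are not shown held no match in a stretch of this length. They are a site in a UTR exon of Hoxd3 and the sites in the flank beyond Evx2, including the flank site called in all 9 lists. A match is a string of letters and was not tested as a binding site.

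Promoters of 8 of the 10 members had a summit in at least 1 wt list, where 60.1% of all protein-coding genes did. Hoxd9 was the member with a promoter summit in all 6 wt lists and in all 9 lists, against 18.2% and 17.2% of all genes. Evx2 and Hoxd11 followed with 8 lists each, Hoxd1 with 7, Hoxd10 with 6, Hoxd13 and Hoxd4 with 5, and Hoxd12 with 3. Hoxd8 and Hoxd3 had none. By library, 7, 6 and 4 members were called in wt HOXA13 replicates 1, 2 and 3, where 51.1%, 41.2% and 33.2% of all genes were. In wt HOXD13 replicates 1, 2 and 3, 3, 8 and 3 members were called against 25.6%, 54.7% and 29.4% of all genes. In the 542 lists, 7 and 5 members were called for HOXA13, against 45.5% and 37.8%, and 8 for HOXD13, against 49.4%. The share of members lay above that of all genes in each of the 9 lists, by little in some and by more in others. With 10 genes and lists that share sites, no test was made. Without wt HOXD13 replicate 3, 3 promoters (Evx2, Hoxd11 and Hoxd9) were called in every remaining wt list, against 20.6% of all genes. Without wt HOXD13 replicate 1, 2 were (Hoxd9 and Hoxd1), against 22.7%. Within 2500 bp of the 5′ end, 3 members were called in all 6 wt lists, against 20.6% of all genes. With summits enriched 5-fold or more none was, against 3.15%, and none with the top 10000 intervals by −log10 p, against 3.9%.

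**Figure D2:**
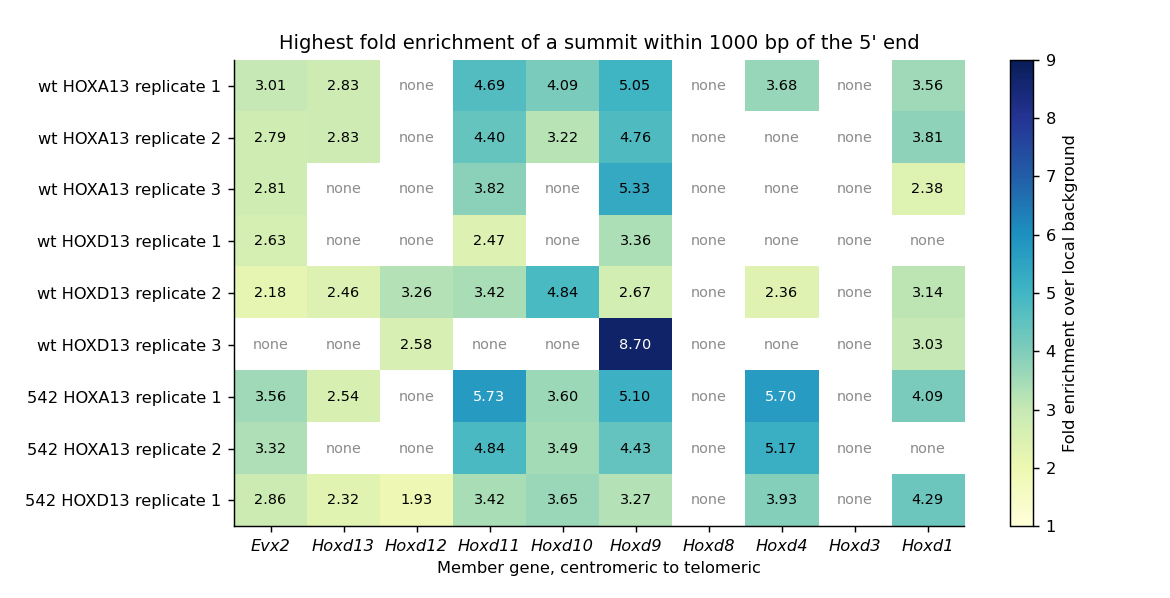
Highest fold enrichment of a summit within 1000 bp of the 5′ end of each member (columns, centromeric to telomeric) in each library (rows), with "none" where the promoter held no summit. Hoxd9 is filled in all 9 rows, Hoxd8 and Hoxd3 in none, and the darkest cell is 8.70 in wt HOXD13 replicate 3.

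Among the digit genes, Hoxd13 itself had weak and scattered summits. The highest summit of its promoter is given for each list that had any. There was one in wt HOXA13 replicates 1 and 2, both at a fold enrichment of 2.83, and in wt HOXD13 replicate 2, at 2.46. In the 542 line there was one in HOXA13 replicate 1, at 2.54, and in HOXD13, at 2.32. These summits lay 221 to 393 bp upstream of the 5′ end, 2 weaker ones lay farther upstream, and the other 4 lists had none in the promoter. The Hoxd13 transcript contains 2 consensus matches, at chr2:74669459-74669466 and chr2:74671203-74671210, and no list had a summit within 50 bp of either.

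Hoxd12 was the member with the fewest lists among those with any promoter summit. Both wt lists that called it were HOXD13 lists, with fold enrichments of 3.26 in replicate 2 and 2.58 in replicate 3, and the 542 HOXD13 list gave 1.93. No HOXA13 list of either genotype had a summit in its promoter or transcript. Counting any overlap of an interval with the promoter added 2 lists of the 542 line, for 5 of 9. Just outside the promoter, a site 1144 bp upstream of the 5′ end was called in 6 lists. They were 1 wt HOXA13 list, 2 wt HOXD13 lists and all 3 lists of the 542 line. Within 2500 bp of the 5′ end, 8 lists had a summit, 5 of them wt, so the split by antibody holds only within the 1000 bp limit.

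The Hoxd11 site called in most lists was in the intron of the representative transcript, 978 bp downstream of the 5′ end and so still within the promoter window. Fold enrichment there was 4.69, 4.40 and 3.82 in wt HOXA13 replicates 1, 2 and 3, and 3.42 and 2.70 in wt HOXD13 replicates 2 and 3. Wt HOXD13 replicate 1 had no summit at this position but had another in the promoter, at 2.47, and wt HOXD13 replicate 3 had its intron summit just beyond the 1000 bp limit. In the 542 line the intron site reached 5.73 and 4.84 for HOXA13 and 3.42 for HOXD13. By promoter and transcript together, Hoxd11 was called in all 9 lists, as was Hoxd9, where 29.3% of all genes were.

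Evx2, a homeobox gene transcribed away from the cluster, had summits 293 bp or more upstream of its 5′ end in 8 lists, all except wt HOXD13 replicate 3. Its values were low, between 2.18 (wt HOXD13 replicate 2) and 3.56 (542 HOXA13 replicate 1). Farther out, 2 sites in the flank beyond Evx2 were called in all 6 wt lists. The outer of them, 16360 bp from the Evx2 5′ end, stood on a low local background, 1.02 to 2.13 times the genome-wide background of each wt library, and its fold enrichment ran from 2.68 to 6.80 over the 9 lists.

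Hoxd10 was called in its promoter in 6 lists, with the highest summit of each 132 to 147 bp upstream of the 5′ end. The values were 4.09 and 3.22 in wt HOXA13 replicates 1 and 2 and 4.84 in wt HOXD13 replicate 2. The remaining 3 wt lists had no summit there, whereas all 3 lists of the 542 line had 1, between 3.49 and 3.65. The same 6 lists had another, weaker summit near 417 bp upstream, between 2.04 and 3.07.

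Hoxd9 carried more summits than any other member, 35 over the 9 lists in promoter and transcript together. In the intron site, 1223 bp downstream of the 5′ end, the recovered pileup was 268, 173 and 85 read ends in wt HOXA13 replicates 1, 2 and 3, and in wt HOXD13 replicates 1, 2 and 3 it was 46, 226 and 76 read ends. The 95% exact Poisson interval was 237 to 302 for the highest of these and 33.7 to 61.4 for the lowest. Per M read ends of the library this came to 3.48 ± 1.48 for wt HOXA13 and 2.34 ± 1.32 for wt HOXD13 (SD, n = 3 each), and the groups overlapped. Intervals cover counting error only, and duplicate reads were retained.

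In the Hoxd9 promoter site, 356 bp upstream of the 5′ end, the pileup per M read ends was 3.35, 2.34 and 1.98 in wt HOXA13 replicates 1, 2 and 3. In wt HOXD13 replicates 1, 2 and 3 it was 0.934, 1.45 and 0.975. All 3 HOXA13 values lay above all 3 HOXD13 values at this site, as they did in 17.6% of the 13581 merged intervals called in all 6 wt lists. Over the whole merged interval around this site, which also holds a summit in the 5′ UTR, the groups overlapped, with the highest value, 5.07, in wt HOXD13 replicate 3.

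Hoxd4 and Hoxd3 depended on which 5′ end was used. For Hoxd4, the representative transcript starts at position 74727074, and its promoter was called in 5 lists, 2 of them wt. An upstream 5′ end of Hoxd4 lies 5.10 kb away, and the site with the highest median percentile of fold enrichment among those called in all 9 lists lay 9 bp from it, in an intron of long Hoxd3 and Hoxd4 transcripts. Fold enrichment at this site was 8.87, 6.46 and 5.03 in wt HOXA13 replicates 1, 2 and 3, and 3.89, 6.61 and 4.55 in wt HOXD13 replicates 1, 2 and 3. The 542 line gave 11.9 and 14.2 for HOXA13 and 10.1 for HOXD13. Its rank within the list was at the 83.0th percentile or above in 8 lists and at the 51.0th percentile in wt HOXD13 replicate 1.

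For Hoxd3, the representative promoter had no summit in any list, the nearest being 1852 bp away. The transcript had 10 summits over 4 lists, 1 of them wt. The most upstream 5′ end of Hoxd3, 24.6 kb away, had a site at 91 bp in 8 lists, all except wt HOXD13 replicate 1. Fold enrichment there was 9.10, 6.62 and 4.13 in wt HOXA13 replicates 1, 2 and 3, and 7.09 and 3.58 in wt HOXD13 replicates 2 and 3. Another site, in a UTR exon of Hoxd3 and called in the same 8 lists, ran from 2.22 to 5.12. With every protein-coding 5′ end counted, Hoxd4 was called in 9 lists and Hoxd3 in 8, which raised the members called in all 9 lists from 1 to 2, against 19.2% of all genes. In all 6 wt lists, 2 members were called this way, against 20.2% of all genes, and 2 by intervals overlapping the promoter, against 18.7%. The RefSeq promoter table used here places the start of both genes at these upstream positions.

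Hoxd8 had no summit in its promoter or transcript in any of the 9 lists, and no interval overlapped its promoter. The nearest summit of any list lay 1687 bp from its 5′ end. Its promoter was rich in G and C (63.9%) and held 2 consensus matches, at chr2:74703698-74703705 and chr2:74704787-74704794, neither with a summit within 50 bp. The absence of a summit means that the caller's threshold was not reached at these depths, and no level can be given. Within 2500 bp of the 5′ end, 7 lists had a summit, in the spacer toward Hoxd9.

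Hoxd1, at the anterior end, was called in 7 lists, 8 to 963 bp from the 5′ end. Fold enrichment was 3.56, 3.81 and 2.38 in wt HOXA13 replicates 1, 2 and 3, and 3.14 and 3.03 in wt HOXD13 replicates 2 and 3. At its leading site, in the 5′ UTR, the local background was close to that of the genome, at most 1.14 times in wt lists.

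Between members, the patterns of promoter calls most alike were those of Evx2 and Hoxd11, with the same call in 9 of 9 lists, and of Hoxd8 and Hoxd3, which had none. Evx2 and Hoxd9, Hoxd11 and Hoxd9, Hoxd10 and Hoxd4, and Hoxd13 and Hoxd10 had the same call in 8 of 9 lists. These figures rest on 9 lists that differ in size. They also rest on the 1000 bp limit, just beyond which Hoxd11 had a summit in wt HOXD13 replicate 3. By intervals overlapping the promoter, Hoxd11 was called in 9 lists and Evx2 in 8.

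**Figure D3:**
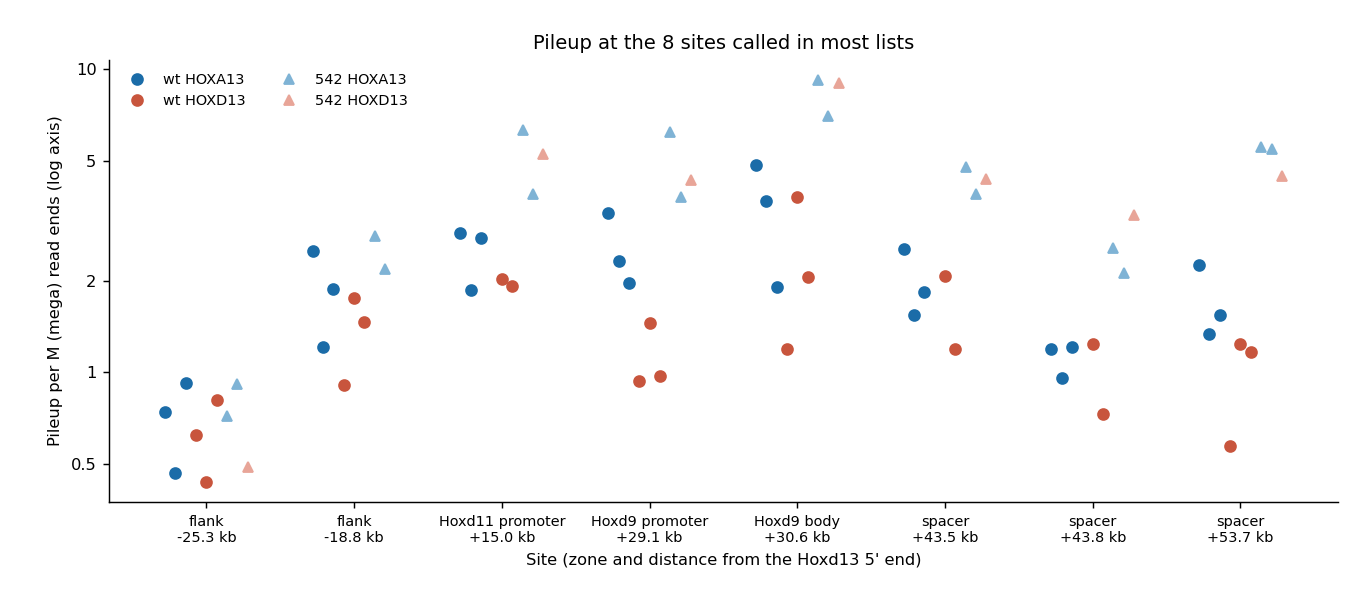
Pileup per M read ends (log axis) at the 8 sites called in most lists, ordered by distance from the Hoxd13 5′ end, with circles for wt and triangles for 542 libraries and no symbol where a list had no summit. At the Hoxd4 upstream site, 53.7 kb from Hoxd13, the 542 HOXA13 libraries sit at 5.48 and 5.54, above the wt HOXA13 libraries between 1.34 and 2.26.

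The order of sites depended on the measure. In wt HOXA13 replicate 1, fold enrichment was higher at the Hoxd4 upstream site than in the Hoxd9 intron, 8.87 against 6.82, while the pileup was lower, 2.26 against 4.85 per M read ends. It also depended on the list. The highest fold enrichment of the window was at the Hoxd4 site in the 3 lists of the 542 line and at other sites in each of the 6 wt lists, among them the Hoxd3 upstream site in wt HOXA13 replicate 1 and wt HOXD13 replicate 2. Fold enrichment is pileup over local background, which was 1.19 to 2.71 times the genome-wide value at the Hoxd4 site and 2.72 to 6.50 times at the Hoxd9 intron in wt lists.

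The whole window was dense in summits. Density was 6.39, 5.96 and 5.08 times that of the genome in wt HOXA13 replicates 1, 2 and 3, and 8.47, 8.06 and 9.48 times in wt HOXD13 replicates 1, 2 and 3. The mean log2 ratio was 2.82 ± 0.34 (SD, n = 6), a 7.08-fold excess, and was above 0 in 6 of 6 libraries (exact permutation of signs over libraries, two-sided, p = 0.031, the smallest that 6 libraries allow, adjusted p = 0.047 over the 6 tests of the cluster). Of 20249 genome windows of the same length, 1 to 91 held as many summits, depending on the wt list. Averaged over same-numbered libraries, this exact permutation test and the 3 others that reached p = 0.031 gave p = 0.25, the smallest that 3 pairs allow.

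**Figure D4:**
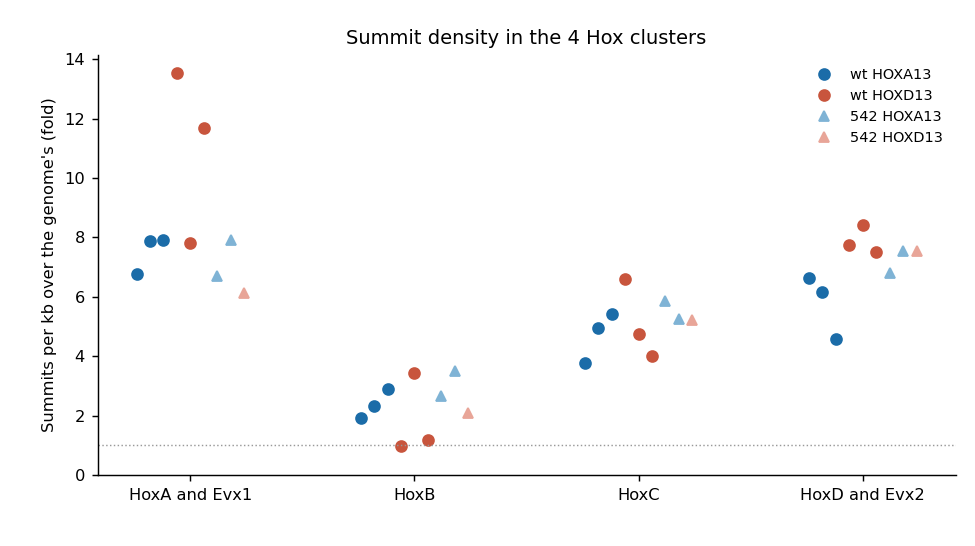
Summit density from the first to the last gene of each Hox cluster, as fold over the density of the genome, with circles for wt and triangles for 542 libraries and the dotted line at 1. In wt lists HoxD lies between 4.59 and 8.43, HoxA between 6.77 and 13.5, HoxC between 3.77 and 6.58 and HoxB between 0.974 and 3.44.

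The other Hox clusters were compared from the first to the last gene. HoxD had 4.59 to 8.43 times the genome density in wt lists, HoxA with Evx1 6.77 to 13.5 times, HoxC 3.77 to 6.58 times and HoxB 0.974 to 3.44 times. The ranges of HoxD and HoxB did not overlap, while those of HoxD overlapped HoxA and HoxC, and no test was made. Promoters called in all 6 wt lists numbered 1 of 10 in HoxD, 5 of 12 in HoxA, 1 of 10 in HoxB and 2 of 9 in HoxC, against 18.2% of all genes. These counts are small, and differences between clusters were not tested.

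Promoters of the members were denser in summits than the rest of the window. They held 14, 10 and 6 of the summits in wt HOXA13 replicates 1, 2 and 3, and 4, 19 and 5 in wt HOXD13 replicates 1, 2 and 3, on 15.4% of the window. The mean log2 ratio of densities was 1.52 ± 0.58 (SD, n = 6), or 2.86-fold, above 0 in 6 of 6 libraries (exact permutation of signs over libraries, two-sided, p = 0.031, adjusted p = 0.047). For summits enriched 5-fold or more the log2 ratio was 1.196 (exact permutation of signs, p = 0.125). Each wt list had 0 to 4 such summits in the window. In wt lists the Hoxd9 promoter was the only member promoter with any, in 3 lists. Wt HOXD13 replicate 1 had none and entered the ratio only through the 0.5 summits added to each count. This value therefore does not show a promoter excess for strong summits. Promoters of all genes often held summits too, from 25.6% of them in wt HOXD13 replicate 1 to 54.7% in wt HOXD13 replicate 2. Summit density in promoters of other genes was not compared, so the excess is not shown to be particular to the members.

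The posterior part of the window, from the flank beyond Evx2 to midway between Hoxd11 and Hoxd10, was compared with the anterior part, since the study treats Hoxd13 to Hoxd11 as digit genes. The study also names Hoxd11, with Hoxd9 and Hoxd10, among the genes that T-DOM controls in the proximal limb. The border is therefore not a clean divide between digit and proximal genes. The posterior part (48.0 kb) had 19, 10 and 12 summits in wt HOXA13 replicates 1, 2 and 3, and the anterior part (82.0 kb) 21, 13 and 9. In wt HOXD13 replicates 1, 2 and 3 the counts were 9, 23 and 14 against 4, 19 and 10. The mean log2 ratio of densities was 1.05 ± 0.50 (SD, n = 6), or 2.08-fold toward the posterior part, above 0 in 6 of 6 libraries (exact permutation of signs over libraries, two-sided, p = 0.031, adjusted p = 0.047).

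This direction held for all summits but turned for strong ones. For summits enriched 5-fold or more, wt lists had 0 or 1 summit in the posterior part and 0 to 4 in the anterior part, a log2 ratio of −0.82 (p = 0.25, exact permutation of signs). Wt HOXD13 replicate 1 had no such summit in either part and entered this ratio only through the 0.5 summits added to each count. In the 10000 intervals of each list with the highest −log10 p, the log2 ratio was −0.82 (p = 0.219, exact permutation of signs). The median local background at summits was higher in the posterior part in 5 of the 6 wt lists, with wt HOXD13 replicate 3 the exception. In wt HOXA13 replicate 1 it was 4.64 against 2.20 times the genome-wide value. Its part in the result was not tested.

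**Figure D5:**
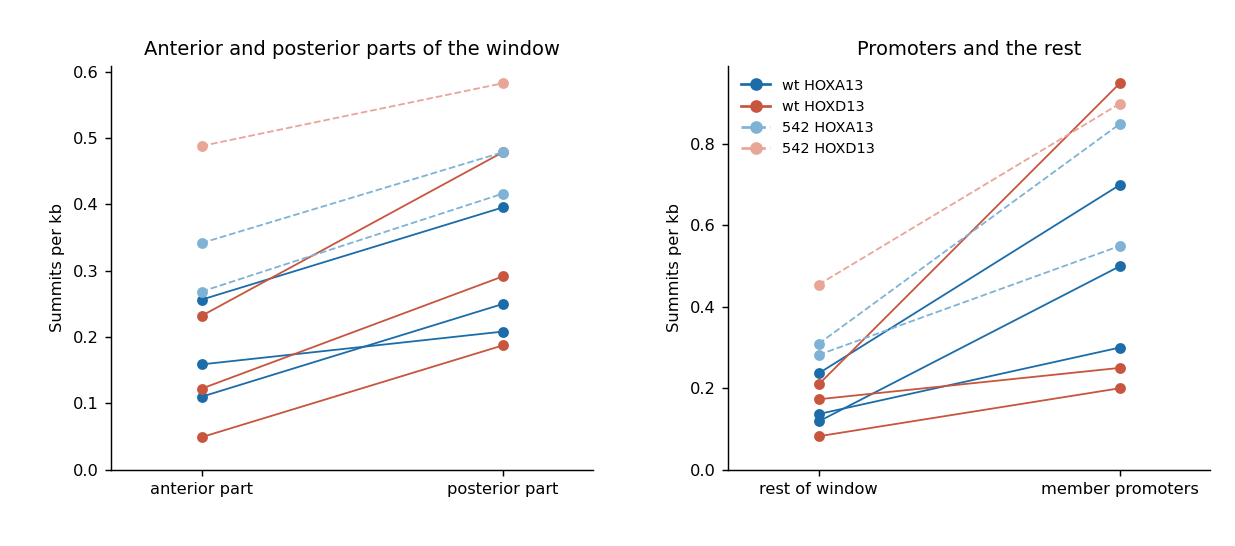
Summits per kb in the anterior and posterior parts of the window (left) and outside and inside member promoters (right), each line 1 library, solid for wt and dashed for 542. All 9 lines rise from left to right in both panels, and wt HOXD13 replicate 3 rises least on the right, from 0.173 to 0.250 per kb.

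Summits of the cluster lay near the HOX13 consensus more often than positions of the window did. A match lay within 25 bp of 5 of 40, 3 of 23 and 2 of 21 cluster summits in wt HOXA13 replicates 1, 2 and 3, and of 2 of 13, 6 of 42 and 3 of 24 in wt HOXD13 replicates 1, 2 and 3. By list this was 9.52% to 15.4% of the summits, against 2.34% of all positions. The mean log2 ratio was 2.61 ± 0.21 (SD, n = 6), or 6.09-fold, above 0 in 6 of 6 libraries (exact permutation of signs over libraries, two-sided, p = 0.031, adjusted p = 0.047). For this ratio 0.5 was added to the summits with a match and 1 to all summits of the list in the window. The ratio is therefore somewhat above that of the shares given here. Over all summits of these lists the share was 6.94% to 11.002%, lower than in the cluster in each of the 6 lists, which was not tested. The libraries share these sites, so the test speaks of libraries and not of independent sequences. With only the core of the consensus, ATAAA or GTAAA, the log2 ratio was 1.18, and within 50 bp it was 2.37 (p = 0.031 each, exact permutation of signs). The study's own motif search drew in part on replicate 3 of both wt antibodies, so a HOX13 consensus may not be independent of these lists.

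From the side of the DNA, the window held 70 consensus matches. Of these, 16 had a wt summit within 50 bp, 50 had none in any list, and 3 had one in all 9 lists. The 3 are the match of the Hoxd9 promoter and both matches at the Hoxd4 upstream 5′ end, shown above in capitals. By the RefSeq promoter table, which spans 300 bases per gene, 10.3% of all promoters hold a match, and entries of Evx2, Hoxd4 and Hoxd11 do among the members.

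Of 69 sites with a wt summit, 36 had summits of both HOXA13 and HOXD13. Of 53 sites with a wt HOXA13 summit, 67.9% had a wt HOXD13 summit, and of 52 sites with a wt HOXD13 summit, 69.2% had a wt HOXA13 summit. No site was called in all 3 lists of one antibody and in none of the other. Sharing at sites of the whole genome, or between replicates of one antibody, was not compared, so these shares are not shown to be particular to the cluster. The cluster took 3.15, 2.94 and 2.50 of every 10000 summits in wt HOXA13 replicates 1, 2 and 3, and 4.17, 3.97 and 4.67 in wt HOXD13 replicates 1, 2 and 3. The groups did not overlap, with a log2 difference of −0.58 for HOXA13 against HOXD13 (two-sided exact permutation test, p = 0.1, the smallest that 3 against 3 allow, adjusted p = 0.12). The difference turned in sign for strong summits (0.20), in the top 10000 intervals (0.57) and for undivided summit counts (0.19).

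The pileup gave another view of the same libraries. Of the merged intervals called in all 6 wt lists, 5 lay in the window, and 1 of them, that of the Hoxd4 upstream 5′ end, had all HOXA13 values above all HOXD13 values, against the 17.6% over the genome. There the HOXA13 values were 2.26, 1.34 and 1.55 per M read ends and the HOXD13 values 0.571, 1.24 and 1.17.

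Between wt and 542 HOXA13 libraries, the cluster's share of the summits did not overlap. The 542 libraries had 3.20 and 3.87 per 10000 summits, above the 3 wt values given for HOXA13, with a log2 difference of −0.30 for wt against 542 (two-sided exact permutation test, p = 0.2, where 3 against 2 cannot go below 0.1, adjusted p = 0.2). The pileup was higher in the 542 libraries at most sites of the cluster. Of 10 merged intervals of the window called in all 5 HOXA13 lists, 8 had both 542 values above all 3 wt values, where 33% of 26560 intervals in the genome did. The median log2 ratio of 542 to wt was 0.83 in these 10 and 0.43 over the genome.

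The highest ratio was at the Hoxd4 upstream 5′ end, where the log2 ratio of 1.68 stood at the 98.5th percentile of the genome's intervals. The 2 intervals whose groups overlapped were those in the flank beyond Evx2 that were called in all 6 wt lists. Genotype, the genome used for mapping and the library cannot be told apart here, and with 2 libraries against 3 no test of single intervals could pass. Local background was higher too at the Hoxd11 intron, 10.1 and 7.35 times the genome-wide value in the 542 HOXA13 libraries against 3.82 to 6.66 times in the wt HOXA13 libraries.

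Replicate 3 stood apart at Hoxd11 and Hoxd9, at sites chosen after their values were seen. At chromosome 2 position 74679771, in an exon of a Hoxd11 transcript that codes for no protein, 214 bp from its 5′ end, wt HOXA13 replicate 3 had a pileup of 264 read ends and a fold enrichment of 8.95, and wt HOXD13 replicate 3 had 254 read ends and 10.4. These summits were at the 99.7th and 99.8th percentiles of their lists. None of the other 7 lists had an interval over these positions. In 4 of them a weaker summit, between 2.06 and 2.92, lay at a neighboring site with a median position of 74679546. This neighboring site was 11 bp from the 5′ end of the same transcript. The RefSeq promoter table has a Hoxd11 entry there, whereas the rule used here counted both sites as spacer. At position 74697910, in the Hoxd9 5′ UTR, the same libraries had 5.33 and 8.70, while the summits of wt HOXD13 replicate 2 and 542 HOXD13 were at 1.86 and 1.47. Of 621 summits of wt HOXA13 replicate 3 enriched 8-fold or more on chromosomes 1 to 19 and X, 5 lay in an interval of wt HOXD13 replicate 3 and in none of the other wt lists. What sets these libraries apart was not tested. With replicates 1 and 2 alone, the log2 ratios of the posterior against the anterior part and of promoters against the rest were 0.98 and 1.81, and with replicate 3 alone 1.201 and 0.92.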

How the data were processed

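Peaks had been called per library by the authors with MACS2 (q below 0.05, no control library, read ends extended to 200 bp) on reads trimmed with Cutadapt, mapped with bowtie2 and kept at a mapping quality of at least 30. Duplicates were marked but retained. The deposited columns hold positions and, per summit, a fold enrichment over local background (a ratio), a −log10 p-value, a −log10 q-value and an integer score made from the authors' q-value.

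The pileup at each summit and the depth were recovered from the fold enrichment and −log10 p-value (at least 99.9% came out whole within 0.01 read ends). Coordinates are 1-based on mm10. Genes came from GENCODE M21, with the representative transcript chosen by APPRIS, CCDS, support level and coding length. Densities were compared within a list, with 0.5 summits added to each count where parts of the window were compared. Counts were also added to for the consensus ratio, as given with that result. Exact permutation tests over libraries were two-sided, and the 6 p-values were adjusted by the Benjamini-Hochberg method. Nothing ties libraries to separate embryos beyond pools of different litters, so p-values measure the spread between these libraries.

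Members, gene lists and rules were chosen with earlier results of these data known. Named sites were the 8 called in most lists, ties broken by the median percentile of fold enrichment, plus the leading site of each member. Same-numbered wt libraries correlated in the presence of merged top intervals, at 0.110, 0.143 and 0.348 for numbers 1, 2 and 3. Only for number 3 was the same-numbered library the closest. Replicate 1 of HOXA13 correlated more with replicate 2 of HOXD13 (0.219), and replicate 2 of HOXA13 slightly more with replicate 1 of HOXD13 (0.146). Averages over same-numbered libraries are therefore given as an alternative, and pairing by number was not established for numbers 1 and 2. Calculations used Python with numpy, pandas and scipy and were tested on simulated data.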

Additional observations from a re-analysis of the deposited data

How the results depend on the processing

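Values are log2 ratios unless named otherwise. Leaving out each library in turn kept every direction: the posterior against the anterior part ran from 0.90 to 1.18, the cluster against the genome from 2.74 to 2.92, promoters against the rest from 1.38 to 1.69 and the consensus at summits from 2.54 to 2.67, each with p = 0.0625 (exact permutation), the smallest that 5 libraries allow. HOXA13 against HOXD13 ran from −0.65 to −0.49 and wt against 542 from −0.44 to −0.17. The replicate block, which averages same-numbered libraries, left the first 4 values at 1.05, 2.82, 1.52 and 2.61 with p = 0.25 (exact permutation), the smallest that 3 pairs allow, and changed no other call. Chosen after seeing the data, replicates 1 and 2 alone gave 0.98, 2.84, 1.81 and 2.69 for these 4 results and replicate 3 alone gave 1.201, 2.80, 0.92 and 2.43, and with 4 or 2 libraries no test could pass. Summits with a fold enrichment of at least 5 turned the posterior against the anterior part to −0.82, HOXA13 against HOXD13 to 0.20 and wt against 542 to 0.10, and moved promoters against the rest to 1.196 and the consensus to 3.85 (p = 0.125 and 0.0625, exact permutation), where wt HOXD13 replicate 1 had no such summit and dropped out of the consensus test. That list entered the ratios of the posterior against the anterior part and of promoters against the rest only through the 0.5 summits added to each count. In the top 10000 intervals the posterior against the anterior part turned to −0.82, HOXA13 against HOXD13 to 0.57 and wt against 542 to 0.0046, with promoters against the rest at 1.34 (p = 0.0625, exact permutation). Undivided summit counts turned HOXA13 against HOXD13 to 0.19. The cause of these changes was not tested.

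The number of member promoters called in all 6 wt lists, 1 as reported, was 2 for overlapping intervals, 3 within 2500 bp, 2 with all 5′ ends, 0 for a fold enrichment of at least 5, 0 in the top 10000 intervals, and 1 to 3 without 1 library. The number of sites in every wt list ran from 5 to 8 without 1 library, 8 being without wt HOXD13 replicate 1. Among recounts of the lists per member promoter, 109 stayed within 1.5 times and 21 moved. Leaving out 1 library lowers a count by at most 1, so those recounts stayed within 1.5 times by construction. All that moved came from another promoter rule or another threshold. An absent summit means that the caller's threshold was not reached at the depth of that library, and is not evidence of absent binding.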
